A study of Mus musculus with 8 samples.

Results

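Chemokine receptors are the surface proteins through which leukocytes sense chemokines and follow them into tissue. The genes described are 9 such receptors, Ccr1, Ccr2, Ccr3, Cx3cr1, Cxcr2, Cxcr3, Cxcr4, Cxcr6 and Ackr3, chosen by symbol from the 24411 genes of the count table. All 9 were found, and 8 had enough reads to be tested. Poly(A) RNA was measured in whole aortas, 1 mouse per library. The caIKK2EC group held 5 female mice of 18 or 19 weeks with the genotype caIKK2(+/+) BMX-CreERT2(+/-) ApoE(-/-). The Control group held 3 Cre-negative littermates with the same transgene and the same ApoE deletion, 2 females of 18 weeks and 1 male of 19 weeks (Control 3). All 8 mice were given tamoxifen, 1 mg per 20 g of body weight on 5 days, and a Western-type diet for 12 weeks, on which mice without apolipoprotein E develop atherosclerotic plaques. In caIKK2EC mice, tamoxifen lets the Cre recombinase remove a stop cassette, so that a permanently active IKK2, the kinase that activates NF-κB, is made together with EGFP. This Cre is limited to arterial endothelium, so leukocytes in these aortas are not the cells meant to carry the active kinase. The labels do not say whether these mice were given tamoxifen early or late in disease.

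As background, chemokine receptors span the membrane 7 times; most signal through inhibitory G proteins that steer cell movement. Ccr2 and Cx3cr1 are known for bringing monocytes into plaques, Cxcr2 for neutrophil recruitment and Cxcr3 and Cxcr6 for T cell traffic. Cxcr4 holds cells near its ligand Cxcl12, while Ackr3 binds the same chemokine without coupling to G proteins and removes it by internalisation.

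Library totals ran from 23461655 to 30808502 counts. The deposited column names place the 3 Controls and caIKK2EC 1 in sequencing lane 7 and caIKK2EC 2 to 5 in lane 8, so that genotype and lane can hardly be told apart. The aorta label was borne out by smooth muscle markers, whose summed level was 10658 to 21950 CPM (read counts on a common library scale set by TMM) in caIKK2EC and 19450 to 39205 CPM in Control libraries. The 12 pan-leukocyte markers summed to 2422 to 3197 CPM in caIKK2EC and 1512 to 1971 CPM in Control libraries, and 12 of 12 had groups that did not overlap. Control 3 had the lowest sums of leukocyte and of macrophage markers, 1512 and 2512 CPM, and the highest smooth muscle sum. Libraries differed in carried-over tissue: skeletal and cardiac muscle markers summed to 995 CPM in caIKK2EC 1 and 52.4 to 138 CPM in caIKK2EC 2 to 5, against 1953 CPM in Control 1 and 65.4 and 39.1 CPM in Control 2 and 3. Adipocyte markers summed to 5493 CPM in caIKK2EC 1, 616 to 1946 CPM in the other caIKK2EC libraries and 2444 to 3135 CPM in Control libraries. Lymphatic and lymph node markers summed to 141 to 228 CPM in caIKK2EC and 96.2 to 131 CPM in Control libraries, with 3 of 7 tested higher at an unadjusted p under 0.05 and 0 lower. Hemoglobin genes, Ccl21a and Myh4 were listed at 0 counts in every library. The part of these tissues in the receptor values was not tested, and caIKK2EC 1 and Control 1 are the libraries on which the lane 7 values and several receptors below turn.

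Of the 8 tested receptors, 7 had a fold change above 0 and Ackr3 alone had one below 0. The median log2 fold change was 0.81, against -0.02 over all 14679 genes tested. The quasi-likelihood test of edgeR called 0 receptors at a Benjamini-Hochberg adjusted p under 0.05, as it called 0% of all genes, its lowest adjusted p being 0.107. At an unadjusted p under 0.05, 4 receptors were higher (Ccr1, Ccr2, Cx3cr1 and Cxcr4), against a background of 9.66%, and 0 were lower, against 7.47%. DESeq2 called 2 receptors higher, Cxcr4 and Ccr1, against 4.55% of all genes with an adjusted p, and 0 lower, against 1.51%. In both, the lowest caIKK2EC library exceeded the highest Control, which held for 7.01% of all genes; for 0 receptors did every caIKK2EC library lie below every Control, against 3.22%. With a library left out, DESeq2 called 1 to 4 receptors higher. Without caIKK2EC 1 to 5 these were 3, 3, 3, 1 and 2 receptors, against 3.98%, 6.81%, 2.47%, 2.23% and 2.28% of all genes. Without Control 1 to 3 they were 4, 2 and 1 receptors, against 5.04%, 4.05% and 2.49% of all genes. In bulk tissue, fewer cells of a type and less RNA per cell cannot be told apart, and this holds for each receptor below.

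**Figure D1:**
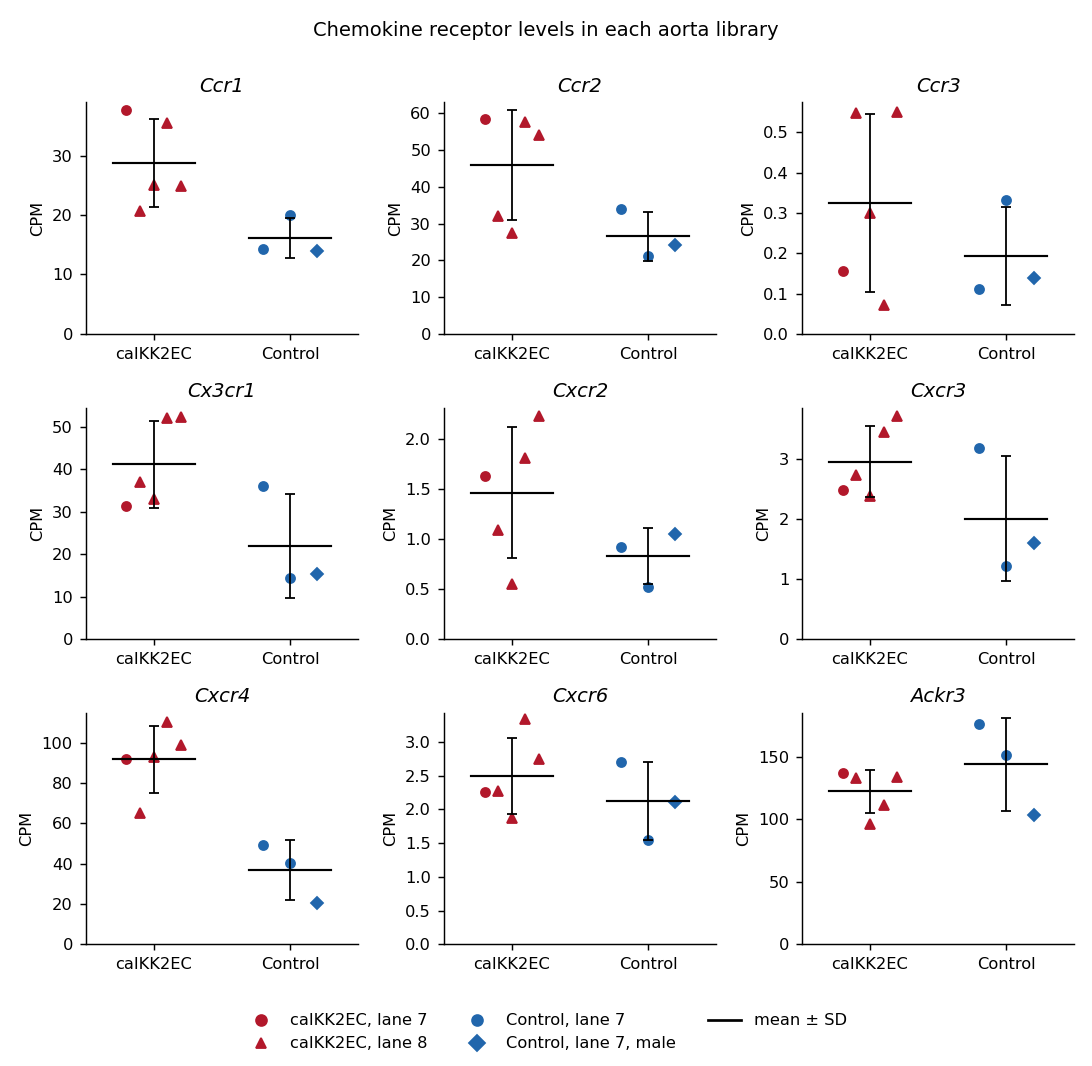
Level of each receptor in CPM on linear axes from 0, with 1 point per library, caIKK2EC left and Control right; circles and diamonds are lane 7, triangles lane 8, the diamond is the male Control 3, and black lines give the mean ± SD. Cxcr4 and Ccr1 are the panels in which the 5 caIKK2EC points lie above all 3 Control points.

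Per kilobase of merged exons, the scale on which levels of different genes can be compared, Cxcr4 and Ackr3 were the most abundant receptors in both groups. Cxcr4 stood at 50.8 CPM per kb in caIKK2EC and 20.4 in Control aortas, and Ackr3 at 36.5 in caIKK2EC and 43.0 in Control aortas, so that the order of these 2 genes differed between the groups. Next came Ccr1 (10.1 and 5.67 CPM per kb in caIKK2EC and Control), Cx3cr1 (9.12 and 4.87) and Ccr2 (6.80 and 3.93), the receptors of monocytes and macrophages. Their SDs, 2.61, 2.29 and 2.21 CPM per kb in caIKK2EC aortas, do not separate Ccr1 from Cx3cr1 or Cx3cr1 from Ccr2. The lymphocyte receptors Cxcr3 (1.71 and 1.16) and Cxcr6 (1.29 and 1.10) were far below these, and the granulocyte receptors Cxcr2 (0.481 and 0.273) and Ccr3 (0.0992 and 0.0592) were lowest.

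Promoter sequences from RefSeq (GRCm38.p6, 250 bases before to 50 after the start) were found for all 9 receptors and are shown for the 2 most abundant ones and for the only one with a match to the binding motif of NF-κB. TATAAA and GGGCGG, searched on both strands, were each found in 2 of the 9 windows, those of Cxcr4 and Ackr3, and in 13.6% and 35.7% of the 32851 promoters in the table. The κB consensus was found in 1 of 9 windows, that of Ccr3, and in 4.51% of all promoters. Capitals mark TATAAA and GGGCGG on either strand in the 120 bases before the starts of Cxcr4 (chr1:128592300-128592419, minus strand) and Ackr3 (chr1:90203860-90203979, plus strand). In Cxcr4 the capital run next to the start is TATAAA on both strands, overlapping by 4 bases. In the 30 bases of Ccr3 (chr9:124021782-124021811, plus strand) capitals mark the κB match.
Cxcr4: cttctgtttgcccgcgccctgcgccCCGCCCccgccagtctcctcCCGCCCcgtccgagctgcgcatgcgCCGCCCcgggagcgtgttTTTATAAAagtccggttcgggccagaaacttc
Ackr3: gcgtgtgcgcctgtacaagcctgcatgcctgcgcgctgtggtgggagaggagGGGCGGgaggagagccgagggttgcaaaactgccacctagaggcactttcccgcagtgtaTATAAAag
Ccr3: ttccttaagaGGAAATTCCCacattgtttt
The match lies at bases -179 to -170 of Ccr3, counted with the start as 0. In Cxcr4 TATAAA on the gene's own strand lies at bases -30 to -25, and in Ackr3 it lies at -8 to -3. A match is a description of letters, and binding was not measured.

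The receptors lie in a few places of the genome. On GRCm38 chromosome 9, Cxcr6 (123806475 to 123811760, plus strand), Ccr1 (123962124 to 123968692, minus), Ccr3 (124021972 to 124031689, plus) and Ccr2 (124101950 to 124113557, plus) stand in a receptor cluster that also holds Ccr9, Xcr1 and Ccr1l1. Cx3cr1 (119901616 to 120069879, minus) is on the same chromosome outside the cluster. Chromosome 1 carries Cxcr2 (74153989 to 74161246, plus), Ackr3 (90203980 to 90216751, plus) and Cxcr4 (128588199 to 128592293, minus), and Cxcr3 (101731535 to 101734269, minus) is on chromosome X. Of the cluster genes named here and tested, the log2 fold change was 0.79 for Ccr2 (SE 0.28) and 0.84 for Ccr1 (SE 0.22). It was 0.95 for Xcr1 (SE 0.39), 0.24 for Cxcr6 (SE 0.30) and -0.99 for Ccr9 (SE 0.96). None was called by edgeR. Of the 50-base exon windows of Ccr2, 1.91% also occur in other genes. The share is 6.68% for Cxcr2 and 1.06% for Cx3cr1, whose exons overlap the antisense gene Gm33858 by 78 bases, and the other 6 receptors share none. Reads from shared or overlapping stretches could not be assigned with certainty.

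Among CC receptors, Ccr1 binds inflammatory chemokines such as Ccl3 and Ccl5 on monocytes, macrophages and neutrophils. Its level was 37.7, 20.7, 25.0, 35.4 and 24.8 CPM in caIKK2EC 1 to 5, against 14.3, 20.0 and 14.0 CPM in Control 1 to 3. All 5 caIKK2EC libraries were above all Controls, although caIKK2EC 2 exceeded Control 2 by a small margin. The log2 fold change was 0.84 (SE 0.22; edgeR adjusted p = 0.136, DESeq2 adjusted p = 0.0172), and the exact two-sided permutation p was 0.0357, the smallest that 5 against 3 allows. Within lane 7, the log2 difference of caIKK2EC 1 from the Control mean was 1.22. DESeq2 no longer called Ccr1 without Control 3 (adjusted p = 0.117), without Control 1 (0.0830) or without caIKK2EC 4 (0.0835). With lane in the model it called Ccr1 (adjusted p = 0.0340) and 0.672% of all genes higher.

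Ccr2, which lets classical monocytes leave the bone marrow and follow Ccl2 into tissue, was at 58.5, 32.1, 27.6, 57.7 and 54.1 CPM in caIKK2EC 1 to 5, against 34.1, 21.3 and 24.3 CPM in Control 1 to 3. The caIKK2EC libraries fell into 3 high ones (1, 4 and 5) and 2 that lay below Control 1, so the groups overlapped. Its log2 fold change of 0.79 (SE 0.28) was not called by edgeR (adjusted p = 0.205) or DESeq2 (0.0760), and the exact permutation p was 0.107. DESeq2 called Ccr2 without caIKK2EC 2 (adjusted p = 0.0227), without caIKK2EC 3 (0.0236) and without Control 1 (0.0332). Of 7 other genes used as markers of classical monocytes, 6 had a log2 fold change above 0, with a median of 0.29, and 1 (F10) was higher at an unadjusted p under 0.05, with none lower.

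Ccr3, the eotaxin receptor of eosinophils, had 4, 13, 7, 2 and 17 counts in caIKK2EC 1 to 5, against 3, 9 and 3 counts in Control 1 to 3. With 58 counts in all it did not pass the filter on low counts. Without that filter the log2 fold change was 0.73 (edgeR adjusted p = 0.707), and DESeq2 gave 0.74 (SE 0.89) with no adjusted p, so the groups did not differ beyond an error that is larger than the fold change itself. The eosinophil gene Epx had 1 count in all 8 libraries. The eotaxin Ccl11 was at 12.8 ± 5.56 CPM in caIKK2EC (SD, n = 5) and 16.6 ± 1.04 CPM in Control aortas (SD, n = 3), which is -0.38 in log2 terms (edgeR adjusted p = 0.590).

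Cx3cr1, the fractalkine receptor of patrolling monocytes and tissue macrophages, was at 31.3, 36.9, 32.9, 52.0 and 52.4 CPM in caIKK2EC 1 to 5, against 36.0, 14.5 and 15.4 CPM in Control 1 to 3. Control 1 stood among the caIKK2EC libraries, and the other Controls were below all of them. The log2 fold change was 0.90 (SE 0.32; edgeR adjusted p = 0.205, DESeq2 adjusted p = 0.0648; exact permutation p = 0.107). This value turned on Control 1: without it the log2 fold change was 1.48, and DESeq2 called the gene (adjusted p = 1.07e-05). With lane as a covariate it was 0.51 (edgeR adjusted p = 0.709), and within lane 7 it was 0.63.

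The ratio of Ccr2 to Cx3cr1 counts, which needs no scaling between libraries, was 1.87, 0.869, 0.838, 1.11 and 1.03 in caIKK2EC 1 to 5, against 0.947, 1.48 and 1.58 in Control 1 to 3. The groups overlapped, with the highest ratio in caIKK2EC 1 and the lowest in caIKK2EC 3.

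Among CXC receptors, Cxcr4 had the largest fold change. It is present on most leukocytes and on some endothelial cells and responds to Cxcl12. Its level was 92.1, 65.2, 93.0, 110.5 and 98.8 CPM in caIKK2EC 1 to 5, against 49.4, 40.5 and 20.7 CPM in Control 1 to 3. The lowest caIKK2EC library, number 2, lay above the highest Control, number 1, and Control 3 was lowest of all. The mean was 91.9 ± 16.7 CPM in caIKK2EC (SD, n = 5) and 36.9 ± 14.7 CPM in Control aortas (SD, n = 3), a ratio of 2.49. The log2 fold change of 1.32 (SE 0.27) gave an edgeR adjusted p = 0.107 and a DESeq2 adjusted p = 0.000290, with an exact permutation p = 0.0357. The lane 7 difference was 1.40, and the log2 fold change was 1.03 without Control 3 and 1.60 without Control 1. DESeq2 called Cxcr4 without each library in turn, with adjusted p from 1.15e-05 to 0.00415, and did not call it with lane as a covariate (0.0696). The test of edgeR called it without caIKK2EC 2 (adjusted p = 0.0388), a fit that called 1.57% of all genes higher, and in a model with age (0.0263), which called 2.77% higher. Over the other libraries left out, its edgeR adjusted p was 0.0782 to 0.229.

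Cxcr2, which binds Cxcl1, Cxcl2 and Cxcl5 and draws neutrophils, was at 1.63, 1.10, 0.555, 1.82 and 2.23 CPM in caIKK2EC 1 to 5, against 0.926, 0.518 and 1.06 CPM in Control 1 to 3. Counts were 13 to 69 per caIKK2EC library and 14 to 25 per Control library; caIKK2EC 3 fell between the Controls and the other 4 were above them. For Cxcr2 the log2 fold change was 0.82 (SE 0.49, edgeR adjusted p = 0.420, exact permutation p = 0.143). Neutrophil genes other than Cxcr2 did not share a direction. Of 7 tested, Csf3r was higher and Retnlg lower at an unadjusted p under 0.05, and the calprotectin subunit gene S100a8 was at 3.72 ± 1.48 CPM in caIKK2EC (SD, n = 5) and 3.12 ± 0.401 CPM in Control aortas (SD, n = 3).

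Cxcr3, the receptor for the interferon-induced chemokines Cxcl9 and Cxcl10 on activated T and NK cells, was at 2.49, 2.74, 2.39, 3.45 and 3.72 CPM in caIKK2EC 1 to 5, against 3.19, 1.22 and 1.61 CPM in Control 1 to 3. As with Cx3cr1, Control 1 was high and the other Controls were below every caIKK2EC library. For Cxcr3 the log2 fold change was 0.56 (SE 0.35, edgeR adjusted p = 0.451, exact permutation p = 0.143); it was 1.09 without Control 1, where DESeq2 called the gene (adjusted p = 0.0365), and 0.31 in the model with lane.

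Cxcr6, the receptor for Cxcl16 on T and NKT cells, was at 2.25, 2.28, 1.88, 3.35 and 2.75 CPM in caIKK2EC 1 to 5, against 2.70, 1.55 and 2.11 CPM in Control 1 to 3. The groups overlapped over most of their range, and the log2 fold change was 0.24 (SE 0.30, edgeR adjusted p = 0.732, exact permutation p = 0.357). Cd3e, part of the T cell receptor complex, was at a similar low level, 2.11 ± 0.538 CPM in caIKK2EC (SD, n = 5) and 1.84 ± 1.10 CPM in Control aortas (SD, n = 3). It does not stand for the T and NK cell list, whose 20 genes summed to more. The sums were 251 to 358 CPM in caIKK2EC and 135 to 238 CPM in Control libraries, without overlap. Of 17 tested T and NK cell genes, Cd4 and Il7r reached an unadjusted p under 0.05, both higher in caIKK2EC. Both are also expressed by cells other than T cells.

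Ackr3 is an atypical receptor that scavenges Cxcl12 and is found on endothelial and stromal cells more than on leukocytes, so its label as a leukocyte receptor is loose. Its level was 136.6, 132.8, 96.4, 111.7 and 133.5 CPM in caIKK2EC 1 to 5, against 176.5, 151.6 and 103.7 CPM in Control 1 to 3. Controls 1 and 2 were above all caIKK2EC libraries, and Control 3 was lower than 4 of them. For Ackr3 the log2 fold change was -0.24 (SE 0.18, edgeR adjusted p = 0.544, exact permutation p = 0.286), -0.42 without Control 3, -0.05 without Control 1 and -0.04 within lane 7.

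**Figure D2:**
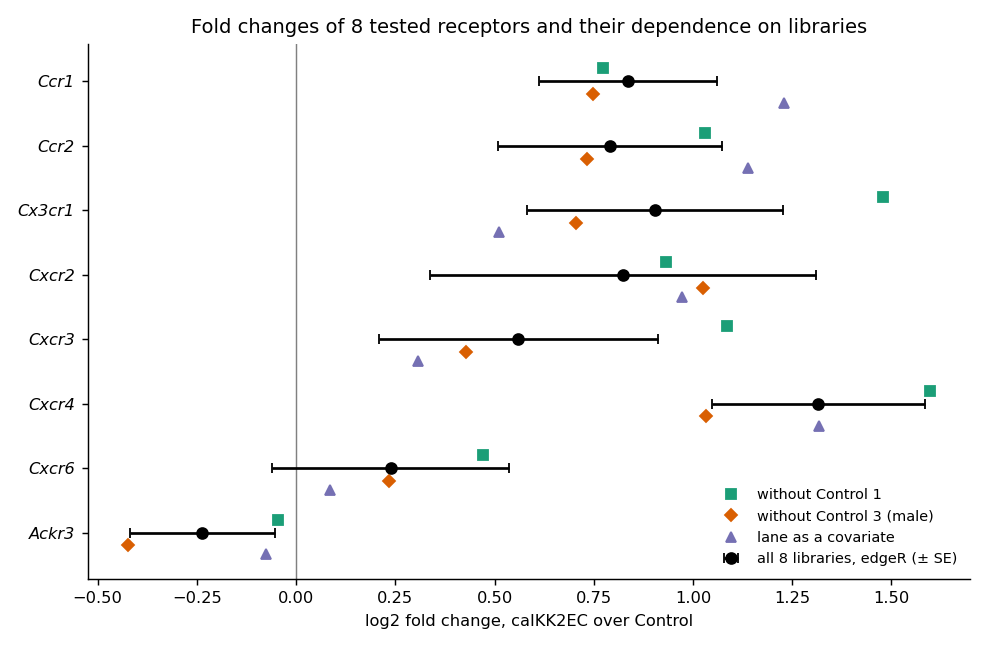
Log2 fold change of each tested receptor, caIKK2EC over Control: black circles with bars give the edgeR value ± SE over all 8 libraries, squares the value without Control 1, diamonds without Control 3 and triangles with lane as a covariate. Cxcr4 lies between 1.03 and 1.60 in all 4, Cx3cr1 between 0.51 and 1.48, and Ackr3 stays below 0.

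Cxcr4 and Ackr3 share the ligand Cxcl12, and their counts in the same library were set against each other after their values were seen. The ratio of Cxcr4 to Ackr3 counts was 0.674, 0.491, 0.965, 0.989 and 0.740 in caIKK2EC 1 to 5, against 0.280, 0.267 and 0.200 in Control 1 to 3. The groups did not overlap, with means of 0.772 ± 0.209 in caIKK2EC (SD, n = 5) and 0.249 ± 0.0430 in Control aortas (SD, n = 3). The 1 caIKK2EC library in the lane of the Controls, caIKK2EC 1, had more than any Control. Of the tested receptors, Cxcr4 had the largest fold change and Ackr3 the only one below 0, so this choice of pair favours separate groups. The share of other gene pairs without overlap was not computed. Cxcl12 itself was at 470 ± 48.4 CPM in caIKK2EC (SD, n = 5) and 383 ± 78.5 CPM in Control aortas (SD, n = 3), which is 0.30 in log2 terms (edgeR adjusted p = 0.371).

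As leukocyte markers were also higher in caIKK2EC aortas, each receptor was divided by the summed CPM of the 12 pan-leukocyte markers in its own library. Cxcr4 stood at 30.7, 26.9, 29.1, 37.0 and 31.4 CPM per 1000 CPM of these markers in caIKK2EC 1 to 5, against 25.3, 20.6 and 13.7 in Control 1 to 3. The groups did not overlap, and the log2 difference was 0.67 (exact permutation p = 0.0357, the smallest possible). Relative to Ptprc alone, the gene of CD45, the log2 difference was 0.42, also without overlap. Relative to 13 macrophage markers the groups overlapped, and the log2 difference was 0.33 (exact permutation p = 0.143). Cxcr4 was at 8.69, 7.06, 7.15, 11.3 and 8.68 CPM per 1000 CPM of these in caIKK2EC 1 to 5. In Control 1 to 3 it was at 6.72, 5.34 and 8.25. Only Control 3 lay among the caIKK2EC libraries here, and it had the lowest macrophage sum, 2512 CPM. The same library had the lowest Cxcr4 value relative to pan-leukocyte markers, 13.7, which enlarges the difference on that scale. The cause of either value was not tested.

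On the same scale Ackr3 was at 45.5, 54.8, 30.2, 37.4 and 42.5 CPM per 1000 CPM of pan-leukocyte markers in caIKK2EC 1 to 5, against 90.3, 76.9 and 68.6 in Control 1 to 3. Every caIKK2EC library lay below every Control, with a log2 difference of -0.92. The marker sum itself was higher in every caIKK2EC library, so a gene with equal CPM in both groups would lie lower on this scale, as it would relative to Ptprc or macrophage markers; in CPM, Ackr3 overlapped between the groups. Relative to 14 endothelial markers, a denominator added after the data were seen, the log2 difference of Ackr3 was -0.52 without overlap (exact permutation p = 0.0357). The margin was small: caIKK2EC 2 was at 37.5 and Control 2 at 38.1 CPM per 1000 CPM of these markers. Control 3 had the lowest endothelial sum of all libraries, 2163 CPM. Its Ackr3 level of 103.7 CPM lay below most caIKK2EC libraries, but on the endothelial scale it was at 47.9, above all of them. The share of all genes without overlap on the endothelial scale was not computed. With the same denominator the log2 difference of Cxcr4 was 1.07, also without overlap. The endothelial sum was 3276 to 4290 CPM in caIKK2EC and 2163 to 3977 CPM in Control libraries. Smooth muscle markers, of which 8 of 10 were lower at an unadjusted p under 0.05, differed between the groups too, and their part in these values was not tested.

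The other 6 tested receptors overlapped between groups relative to pan-leukocyte markers. How many of all genes would not overlap on this scale was not computed, and the shares given for CPM do not apply to it. The log2 difference was 0.09 for Ccr1, 0.03 for Ccr2, 0.28 for Cx3cr1, -0.20 for Cxcr2, -0.18 for Cxcr3 and -0.51 for Cxcr6, with exact permutation p-values of 0.107 (Cxcr6) to 0.964 (Ccr2). Ccr1, which lay higher without overlap in CPM, was at 9.73 ± 2.29 CPM per 1000 CPM of pan-leukocyte markers in caIKK2EC (SD, n = 5) and 8.89 ± 1.45 in Control aortas (SD, n = 3).

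**Figure D3:**
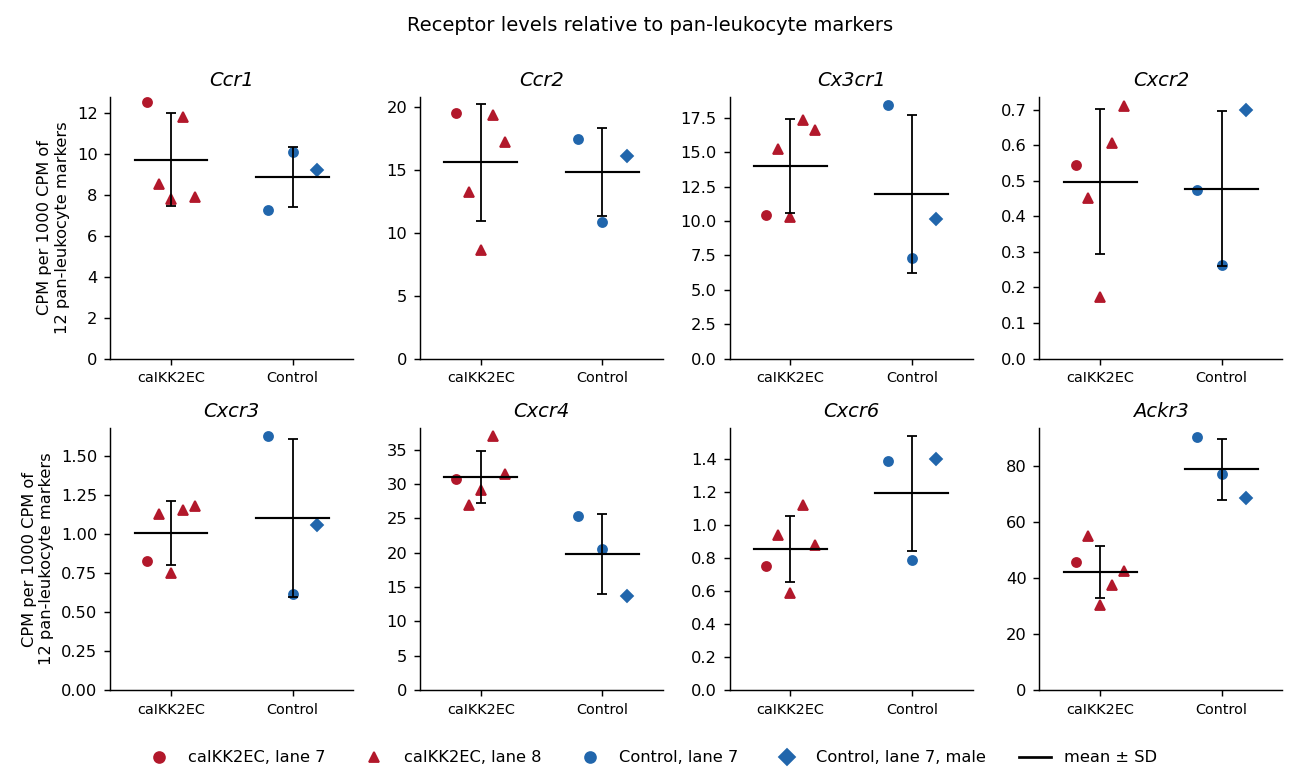
Level of each tested receptor as CPM per 1000 CPM of 12 summed pan-leukocyte markers, on linear axes from 0, with 1 point per library, caIKK2EC left and Control right; circles and diamonds are lane 7, triangles lane 8, the diamond is Control 3, and black lines give the mean ± SD. Cxcr4 is higher and Ackr3 lower in all 5 caIKK2EC libraries than in all 3 Controls, and the other 6 receptors overlap. The share of all genes without overlap on this scale was not computed.

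Of 16 other chemokine receptors, 11 were tested, with a median log2 fold change of 0.27; 3 were higher at an unadjusted p under 0.05, Ccr7 and Xcr1 among them, while 0 were lower. Ccr7, which guides dendritic cells and lymphocytes to lymph nodes, was at 7.75 ± 2.98 CPM in caIKK2EC (SD, n = 5) and 3.46 ± 0.618 CPM in Control aortas (SD, n = 3), which is 1.17 in log2 terms (edgeR adjusted p = 0.136), and it was the only one DESeq2 called (adjusted p = 0.0106). Xcr1, the receptor of cross-presenting dendritic cells, was at 1.64 ± 0.368 CPM in caIKK2EC (SD, n = 5) and 0.844 ± 0.365 CPM in Control aortas (SD, n = 3), without overlap.

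Ligands of the 9 receptors were also measured in the aortas. Of 24 tested, 20 had a log2 fold change above 0 (median 0.63); 10 were higher and 0 lower at an unadjusted p under 0.05, DESeq2 called 8 higher, and edgeR called 0. The 3 with the smallest p were Cxcl16, the transmembrane ligand of Cxcr6, and Ccl12 and Ccl2, both ligands of Ccr2. Cxcl16 was at 269 ± 26.0 CPM in caIKK2EC (SD, n = 5) and 152 ± 40.2 CPM in Control aortas (SD, n = 3), giving a log2 fold change of 0.82 with SE 0.18 (edgeR adjusted p = 0.109, DESeq2 adjusted p = 0.000822), whereas its receptor Cxcr6 had 0.24 (SE 0.30). Ccl2 had a log2 fold change of 0.95 and Ccl12 of 1.01 (edgeR adjusted p = 0.110 and 0.109), and for both the groups did not overlap. All 4 ligands listed for Ccr2 were called higher by DESeq2. Cx3cl1, the only ligand of Cx3cr1, was at 187 ± 40.3 CPM in caIKK2EC (SD, n = 5) and 116 ± 25.4 CPM in Control aortas (SD, n = 3), which is 0.68 in log2 terms (edgeR adjusted p = 0.172), but the lane 7 difference was 0.04. The 2 listed eotaxins, Ccl11 and Ccl24, had log2 fold changes below 0 (-0.38 and -0.35), neither of them called.

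Of 38 tested genes that carry or limit the receptor signal inside the cell, 20 passed an unadjusted p under 0.05 as higher. As lower, 1 passed, the inhibitory G protein subunit Gnai1. DESeq2 called 15 higher and 0 lower. The list holds Rgs and arrestin genes, which limit the signal, and some of these were among the 20. The 3 with the smallest p were Pik3cd, a phosphoinositide kinase of leukocytes, Rac2, a small GTPase of blood cells, and the Src-family kinase Lyn. Pik3cd was at 95.6 ± 5.45 CPM in caIKK2EC (SD, n = 5) and 55.9 ± 11.4 CPM in Control aortas (SD, n = 3), a log2 fold change of 0.77, with 0.62 for Rac2 and 0.91 for Lyn. Rac2 and Coro1a also belong to the pan-leukocyte markers, so the lists are not independent. The G protein subunits Gnai2 and Gnb1, made by most cells, had log2 fold changes of 0.12 and 0.09, neither of them called.

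**Figure D4:**
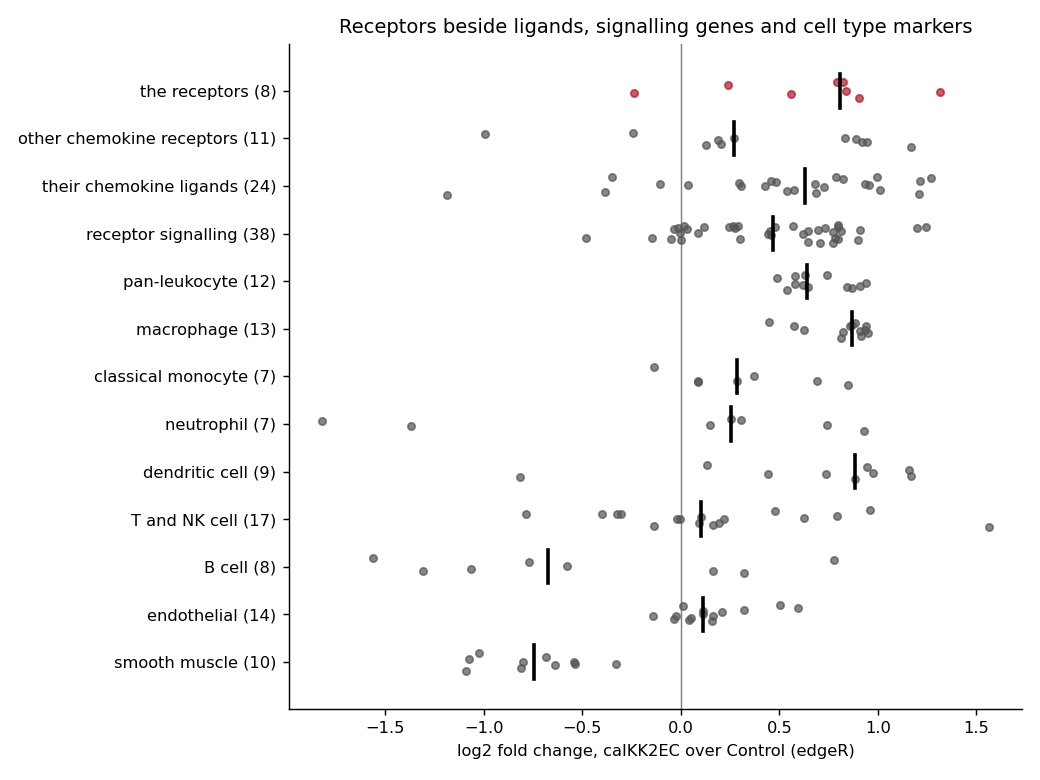
Log2 fold change by edgeR, caIKK2EC over Control, with 1 point per tested gene, black bars at the list medians and the number of genes in brackets; points are spread up and down only to be seen. The receptors have a median of 0.81, near the macrophage (0.87) and dendritic cell markers (0.88) and above pan-leukocyte markers (0.64). Neutrophil markers lie at 0.25, T and NK cell markers at 0.10, B cell markers at -0.67 and smooth muscle markers at -0.74.

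Among macrophage markers 12 of 13 passed an unadjusted p under 0.05, all higher in caIKK2EC, and the summed level of the list was 9233 to 13011 CPM in caIKK2EC and 2512 to 7596 CPM in Control libraries. Dendritic cell markers gave 6 of 9 higher and 0 lower, B cell markers 1 higher and 0 lower of 8, and endothelial markers 1 higher and 0 lower of 14. The dendritic cell genes counted as higher include Ccr7 and Xcr1, already counted among the other chemokine receptors, so those lists are not independent. Of the 8 tested B cell markers, 3 had a log2 fold change above 0, with a median of -0.67. Their list summed to 59.6 to 77.3 CPM in caIKK2EC and 27.4 to 60.5 CPM in Control libraries. The part of these cell types in the receptor levels was not tested.

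The receptors also differed in which other genes they followed across the 8 libraries. Among 12089 candidate genes, those with the highest Pearson r with Cxcr4 in log2 CPM were Spi1 (0.994), the gene of the myeloid transcription factor PU.1, Vav1 (0.994) and Rassf2 (0.992). For Ccr1 they were Ubald1 (0.991), Dram1 and Galnt18, for Ccr2 Gpm6b (0.980), Plbd1 and H19, and for Cx3cr1 Gpr34 (0.974), Pou2f2 and Cyb5d2. Gpr34 also led for Cxcr3 (0.964), followed by Ino80c and Matn2. Scin (0.965), Smarca1 and Il1r2 were nearest to Cxcr6, and Adal (0.935), F13a1 and Epha7 to Cxcr2. Ackr3 was nearest to Retnla (0.966), Sec61a2 and Mif4gd. These are descriptions: the highest of many correlations over 8 libraries that share lanes, tissue makeup and the 2 groups.

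The spread within groups was unequal. Among Controls, Cx3cr1 and Cxcr3 had coefficients of variation of 55.6% and 52.0%, with Control 1 far above the others, and Cxcr4 39.8%. Among caIKK2EC libraries the same genes had 25.1%, 20.1% and 18.1%. Ackr3 had the smallest spread in caIKK2EC aortas, 14.3%, and 25.7% in Control aortas. Cxcr6 had 22.6% in caIKK2EC and 27.1% in Control aortas. The other receptors went the other way. Ccr1 had 25.7% in caIKK2EC and 21.0% in Control aortas, Ccr2 32.5% and 25.1%, and Cxcr2 44.5% and 33.7%. Ccr3, with few counts, had the largest spread in both groups, 67.8% and 62.5%. The difference in spread was not tested.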

How the data were processed

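Whole-aorta poly(A) RNA of 5 caIKK2EC and 3 Control mice, 1 mouse per library, was sequenced as single reads of 50 nt from a directional library, per the labels' protocols. The submitters' processing notes list the build GRCm38 (mm10) and the tools DESeq2 1.22.2, STAR 2.7.0e and FastQC 0.11.5. No source used here states the counting program, the annotation or the use of strand. The deposited values analysed are raw counts per gene symbol, as the authors made them. The authors' deposited comparison table gives log2 fold changes and p-values, and its values for the receptors were the same as those of the DESeq2 fit made here to the digits printed. Groups were taken from the genotype labels.

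Differences were tested with edgeR 4.0.16 (R 4.3.3) by a robust quasi-likelihood fit with TMM scaling and the default filter on low counts, which kept 14679 genes. DESeq2 1.42.0 on genes with at least 10 counts was the alternative. Adjusted p-values are Benjamini-Hochberg values with a threshold of 0.05, for edgeR over all genes tested. For DESeq2 they cover only the genes its own filter left with an adjusted p, 14340 with all libraries and 13394 with lane. Shares of all genes called by DESeq2 are shares of the genes with an adjusted p in that fit. Exact two-sided permutation tests used all 56 placements of the 8 libraries and log2(CPM + 0.5), with 0.0357 as the smallest p, and 0.0571 or 0.0952 with 1 caIKK2EC or Control library left out. Both tools were first run on simulated data. Lane, sex, age, filters, scaling and single libraries were varied. Of 28 lists, 3 genes were not found.

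Exon lengths and positions come from GENCODE M21, and promoters from RefSeq. The receptors and lists were chosen with earlier results of these data known. The rule for named genes took all 9 receptors, up to 3 genes of each pathway list with the smallest edgeR p, sole ligands, and the 3 genes most like each receptor among tested genes averaging 1 log2 CPM or more. Single marker genes, Ccl11, Ccl24, Ccr9, Gnai1, Gnai2 and Gnb1 were named after their values were seen, and some genes the rule named are not reported here.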

Additional observations from a re-analysis of the deposited data

How the results depend on the processing

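The log2 fold changes of the 8 tested receptors kept their sign under every alternative run. Of 136 tested alternative fold changes of single receptors, 132 stayed on the same side of the threshold and 4 passed it. As the main edgeR fit called 0 genes, a receptor could only stay uncalled or become called, so the 132 do not measure stability. The DESeq2 runs with lane or with a library left out are not among the 136, and calls changed in them. Of 8 differences within lane 7, which have no test, 1, Ccr1 at 1.22, moved by more than the spread between replicates. The count of receptors called higher, 0 by edgeR, was 2 by DESeq2, 1 (Cxcr4) with age as a covariate, where 407 genes were called higher, and 0 to 1 with a library left out. DESeq2 called 1 with lane as a covariate (Ccr1), as it called 0.672% of all genes, and 1 to 4 with a library left out, alternatives chosen after seeing the data: 4 without Control 1 and 1 without Control 3 or caIKK2EC 4. At an unadjusted p under 0.05, 4 receptors were higher in caIKK2EC and 0 lower; with sex as a covariate 2 were higher and 1 (Ackr3) lower, and leaving out a library gave 2 to 5 higher and 0 to 1 lower. Receptors with every caIKK2EC library above every Control numbered 2, and 2 to 5 with a library left out. Those with every caIKK2EC library below every Control numbered 0, and 0 to 1 with a library left out, the 1 being Ackr3 without Control 3. For these non-overlap and unadjusted p counts, the share over all genes was computed only for all 8 libraries without a covariate. The other settings thus have no share to set their counts against. Relative to macrophage markers in place of pan-leukocyte markers, 1 receptor (Ackr3) did not overlap, and no share over all genes was computed on either scale. The cause of these changes was not tested. Replicate numbers 1 to 3 occur in both groups, and deviations of same-numbered libraries correlated at 0.335, 0.0989 and 0.0968. Libraries with different numbers were not correlated for comparison, so whether a shared number marks a pair was not tested. With the replicate block on those 6 libraries, the log2 fold change of Cxcr4 was 1.26, edgeR called 0 receptors and 4 had an unadjusted p under 0.05. On the same libraries without the pairing, also added after seeing the data, 2 receptors had an unadjusted p under 0.05. For both of these fits, too, the share over all genes was not computed. Counts of 13 to 69 per library limit Cxcr2, and 2 to 17 limit Ccr3.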
